A study of Homo sapiens with 6 samples.

Results

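Interleukin 24 (IL24) and 6 receptor chains, IL10RB, IL10RA, IL20RA, IL20RB, IL22RA1 and IFNLR1, were followed in A375 cells after knockdown of ERK3. These 7 genes, of 17687 measured, were chosen by symbol and selected on the measured values of this same comparison, in which IL24 fell while IL10RB rose, so their differences are a description that no test here supports. All 7 were measured, each by 1 probe set, and no filter on low values was applied. A375 is an established human melanoma cell line, and ERK3, the product of MAPK6, belongs to the atypical members of the MAP kinase family. One group of 3 arrays came from cells transfected with a small interfering RNA (siRNA) that targets the ERK3 transcript (siERK3) and the other group of 3 from cells given a negative control siRNA (siCon), all kept in DMEM with fetal bovine serum and penicillin-streptomycin and transfected with DharmaFECT, with total RNA taken 3 days later. The model is 1 tumour cell line in culture, and neither the siRNA sequences nor how many were used against ERK3 is given in the sources used here. Nothing in the labels tells separate cultures from repeat samples of 1 culture, so errors and p-values here cover array-to-array spread that may be technical.

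Cytokines of the IL-10 family signal through pairs of class II cytokine receptor chains, a ligand-binding chain and an accessory chain, which activate JAK kinases and then STAT factors, above all STAT3. IL10RB is the accessory chain shared by the receptors for IL-10, IL-22, IL-26 and the lambda interferons, whereas IL-24 signals through IL20RB paired with IL20RA or IL22RA1 and does not need IL10RB. IL24, also named MDA7, was first isolated from melanoma cells driven to differentiate, and its forced expression is known to kill many kinds of tumour cell.

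Values are log2 signals as deposited, and differences are siERK3 minus siCon on that scale. The 95th percentile of 612 negative control probe sets on the same array, 7.32 to 7.56 on the 6 arrays, served as the background level. Between 45.6% and 47.6% of genes lay above it on an array, and 8838 of 17687 genes lay below it on all 6. Lying below it is therefore common and does not show that a gene is silent. Array medians differed by less than 0.05, and Pearson's r between arrays was 0.991 to 0.995 across genes (not independent of each other). Arrays siCon 2 (-26.47) and siERK3 3 (-15.21) stood apart from the other 4 (4.35 to 21.69) along principal component 2. MAPK6, the target, fell from 13.54 ± 0.09 (SD, n = 3) to 10.51 ± 0.18 (SD, n = 3), to 12.2% of the control signal (limma, adjusted p = 0.000133). Melanocyte lineage genes were split, as 5 of 9 (MITF, SOX10, S100B, S100A1 and EDNRB) lay above background on all 6 arrays and the pigment genes MLANA, PMEL, TYR and TYRP1 on none.

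Markers of other cell types were read because several of these receptors are known from leukocytes and epithelia. Of 11 leukocyte markers, 9 lay below background on all 6 arrays, among them PTPRC, CD3E and CD14, while LYZ and CD68 lay above it on all 6. The log2 of the summed leukocyte signal was 12.67 to 12.81 in siCon and 12.24 to 12.28 in siERK3. CD68, with means of 12.51 and 12.05, made up most of that sum. The differences were -0.85 for LYZ and -0.47 for CD68, and neither passed the test (limma, adjusted p = 0.0965 and 0.152). All 5 keratinocyte markers and all 5 endothelial markers lay below background on all 6 arrays, with summed levels of 6.02 to 6.43 and 7.33 to 7.76 in siCon and of 6.03 to 6.32 and 7.32 to 7.50 in siERK3. Of 6 fibroblast markers 3 lay below background throughout, and the summed level was 10.35 to 10.48 in siCon and 10.10 to 10.17 in siERK3, with LUM lower by 0.83 and past the test (limma, adjusted p = 0.0441), a call lost in each of the 6 fits that left 1 array out (up to 0.157). PDGFRB went the other way, by 0.75 (limma, adjusted p = 0.0631), from above background on 0 of 3 siCon arrays to 3 of 3 siERK3 arrays, and 4 of the 6 fibroblast markers had differences above 0, with a median of 0.16. The summed level of 7 markers of dedifferentiated melanoma was 16.78 to 16.88 in siCon and 16.60 to 16.63 in siERK3. VIM, with means of 16.40 and 16.12, made up most of that sum. Differences were above 0 for 4 of these 7, NGFR (0.57, below background) among them, and the median was 0.03. The part of these shifts in the values below was not tested. In such bulk RNA, fewer cells that express a gene and less of its RNA per cell cannot be told apart.

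IL24 was the 1 family ligand measured above background, and its signal in siERK3 was 43.6% of that in siCon. Its siCon arrays read 12.10, 11.60 and 12.01, and its siERK3 arrays 10.66, 10.76 and 10.71. All 6 values lay above background, and they did so even with that level set at the 99th percentile of the controls. The groups did not overlap: the lowest siCon value, that of siCon 2, lay 0.84 above the highest siERK3 value. The siERK3 arrays spanned 0.10 and the siCon arrays 0.50. The group means were 11.90 ± 0.27 and 10.71 ± 0.05 (SD, n = 3 each), which gave a log2 difference of -1.20 (SE 0.16, 95% interval -1.56 to -0.83), a 2.29-fold lower signal. Without siCon 2 the difference was -1.35.

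The 250 bases before the RefSeq start of IL24 (GRCh38.p14, chr1:206897193-206897442, plus strand) are shown because IL24 was the only one of the 10 ligand genes measured above background. Capitals mark the 1 match found among 6 motifs searched on both strands, the core of the interferon-stimulated response element (GAAA, any 2 bases, GAAA), which lies here on the minus strand at bases -83 to -74 from the start.
IL24: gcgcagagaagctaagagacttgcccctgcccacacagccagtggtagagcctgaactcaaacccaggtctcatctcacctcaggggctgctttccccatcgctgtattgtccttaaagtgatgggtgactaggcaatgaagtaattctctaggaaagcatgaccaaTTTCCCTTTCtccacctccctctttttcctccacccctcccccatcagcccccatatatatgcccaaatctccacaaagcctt
The same core was present in 3.02% of 35091 RefSeq windows of this length. The other 5 motifs had no match in the IL24 window. They were TGACTCA of AP-1, in 4.2% of all windows, TGACGTCA of CREB (1.65%), TTCNNNGAA of STAT factors (6.57%), TTGCNNAA of C/EBP factors (9.05%) and that of NF-kB, GGG, any 5 bases and CC (54.4%). A match describes the letters of the window only, as no binding was measured.

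IL10RB, the shared accessory chain, went the opposite way. Its siCon arrays read 7.59, 7.28 and 7.56, and its siERK3 arrays 8.87, 9.01 and 8.78. Each siERK3 array lay above background, whereas siCon 1 and siCon 3 lay just above it and siCon 2 below it. The groups did not overlap and were 1.19 apart, more than the span of 0.31 within siCon and of 0.23 within siERK3. Means were 7.48 ± 0.17 and 8.89 ± 0.12 (SD, n = 3 each), a log2 difference of 1.41 (SE 0.14, 95% interval 1.08 to 1.74) or a 2.65-fold higher signal. With the level set at the 99th percentile instead, none of the 6 arrays showed IL10RB above background.

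The matching window before IL10RB (GRCh38.p14, chr21:33266117-33266366, plus strand) is set beside that of IL24 because the transcripts of these 2 genes moved in opposite directions. Capitals mark 3 matches to the NF-kB motif in the loose form searched here (GGG, any 5 bases and CC). They lie at bases -80 to -71, -62 to -53 and -25 to -16.
IL10RB: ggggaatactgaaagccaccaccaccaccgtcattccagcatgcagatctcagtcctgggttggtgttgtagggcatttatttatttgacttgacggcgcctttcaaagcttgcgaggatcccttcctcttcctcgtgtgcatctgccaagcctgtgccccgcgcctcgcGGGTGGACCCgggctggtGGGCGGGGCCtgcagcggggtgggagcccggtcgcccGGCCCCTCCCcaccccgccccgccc
Most windows of this length (54.4%) held this motif, and the 5 other motifs had no match in the IL10RB window. The 2 windows differ in base content: G and C made up 65.2% with 17 CpG pairs before IL10RB and 51.6% with 2 CpG pairs before IL24, against medians of 58% and 11 over all windows. Of the other 5 receptor genes, all 5 with windows in RefSeq, IFNLR1 held the 1 STAT match, TTCCGGGAA, at bases -238 to -230, and IL10RA the 1 AP-1 match, TGAGTCA, at bases -73 to -67. C/EBP matches were found before IL10RA (TTGCCCAA) and IL22RA1 (TTCTGCAA). NF-kB matches were also found before IL22RA1 (3), IFNLR1 (5, partly overlapping) and IL20RB (1).

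IL20RB, the accessory chain that IL-24 itself requires, was below background on all 6 arrays. It read 4.20, 4.80 and 4.74 in siCon and 5.40, 4.96 and 4.78 in siERK3. The groups overlapped, since siERK3 3 lay under siCon 2, and the log2 difference was 0.46 (SE 0.22, 95% interval -0.03 to 0.95).

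Among the ligand-binding chains, IL22RA1, which binds IL-22 and also serves IL-20 and IL-24, was the one above background on all 6 arrays. It read 8.14, 7.39 and 8.02 in siCon and 7.90, 8.49 and 7.81 in siERK3. The lowest value, siCon 2, stood just above that array's background level of 7.34, and the groups overlapped. The log2 difference was 0.21 (SE 0.24, 95% interval -0.34 to 0.77), and it was 0.36 without siCon 1 and -0.015 without siCon 2.

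IFNLR1, the ligand-binding chain for lambda interferons, lay just below background, at 7.51, 7.03 and 6.91 in siCon and 7.26, 6.93 and 6.92 in siERK3. With the level set at the 90th percentile instead, all 6 of its values lay above the level. Its log2 difference was -0.12 (SE 0.19). IL20RA, which pairs with IL20RB for IL-19, IL-20 and IL-24, read 3.55, 3.83 and 3.54 in siCon and 3.23, 4.22 and 3.53 in siERK3. Its 6 values lay far below background and siERK3 2 was the highest. IL10RA, the IL-10-binding chain of leukocytes, was lower than background on every array, at 2.86 to 3.34 in siCon and 2.96 to 3.36 in siERK3. The differences of IL20RA and IL10RA were 0.02 (SE 0.24) and 0.11 (SE 0.17), and the groups overlapped for both.

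**Figure D1:**
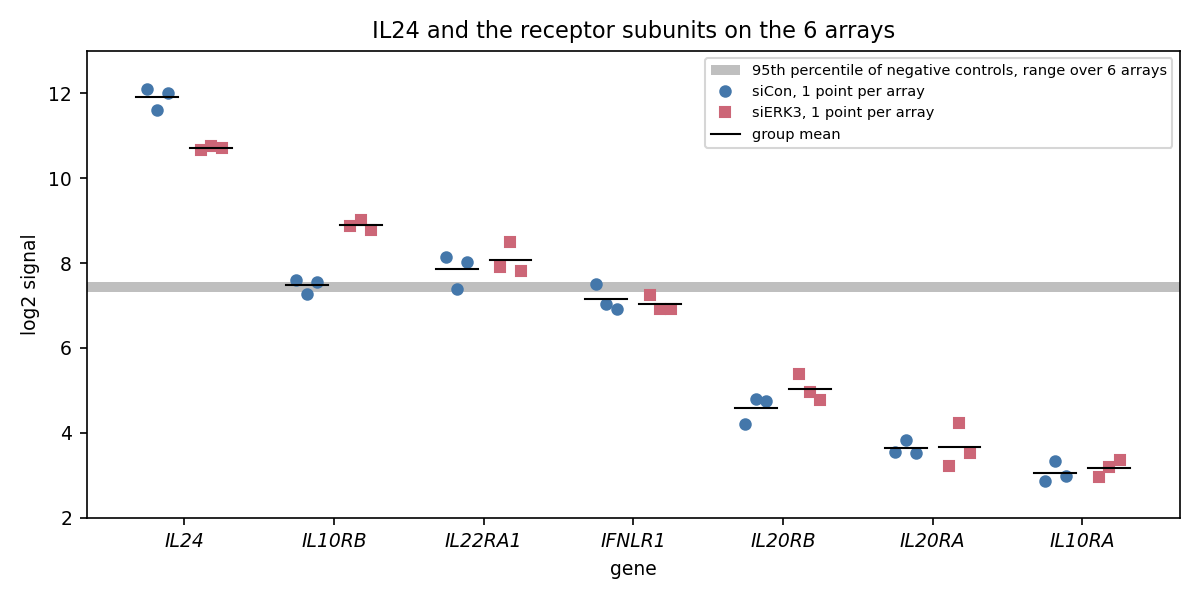
The log2 signal of each gene on each array is plotted for siCon (circles) and siERK3 (squares), with group means as black lines and the range of the 95th percentile of the negative controls over the 6 arrays as a grey band. The siERK3 values lie wholly below the siCon values for IL24 and wholly above them for IL10RB, and the groups overlap for the other 5 genes; levels of different genes are not comparable, as each has its own probes.

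By the threshold used for all genes, an adjusted p under 0.05 in limma, the selection holds 1 higher gene (IL10RB), 1 lower gene (IL24) and 5 that did not reach it. Over all 17687 genes 0.956% reached it, 0.447% higher and 0.509% lower. Since this comparison chose the 7 genes, nothing is read from their count. Groups that did not overlap were found for the same 2 of the 7 and for 19.8% of all genes (10.1% higher, 9.7% lower), and nothing is read from that count either. The median log2 difference was 0.11 over the 7 genes and -0.0014 over all genes. With 1 array left out, the difference of IL24 ran from -1.35 to -1.10 and that of IL10RB from 1.31 to 1.46. The call of IL24 held in 1 of these 6 fits, whereas that of IL10RB held in 6 of 6.

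The receptor pairs can be read from which chains lay above background together. For the IL-22 receptor, IL22RA1 with IL10RB, both chains lay above background on 2 of 3 siCon arrays and on 3 of 3 siERK3 arrays. For the other 5 pairs examined, which serve IL-10 (IL10RA with IL10RB), the lambda interferons (IFNLR1 with IL10RB), IL-26 (IL20RA with IL10RB) and the IL-20 subfamily (IL20RB with IL20RA or with IL22RA1), no array of either group had both chains above background. With the level set at the 90th percentile of the controls, the IL-22 pair and the lambda interferon pair both lay above it on 3 of 3 arrays of each group, and the other 4 pairs on 0. At the 99th percentile no pair did on any array. At all 3 levels both receptor pairs known for IL-24 lacked a chain above background in the cells in which IL24 was measured.

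The other ligands of the family were examined next. All 9 measured, IL10, IL19, IL20, IL22, IL26, IFNL1, IFNL2, IFNL3 and IFNL4, lay below background on all 6 arrays, as did 8838 of all 17687 genes. None of the 9 passed the test (limma, with 1 lower at an unadjusted p under 0.05, against 6.5% of all genes). Their differences ran from -0.35 for IFNL3 to 0.28 for IL22, with a median of 0.06. IL10, the anti-inflammatory founder of the family, had group means of 5.71 and 5.47. For IL10 and IFNL3 the siERK3 values all lay under the siCon values, against 9.7% of all genes, but at a level where no transcript was distinguished from the negative controls. The 2 genes that share near-identical sequence, IFNL2 and IFNL3, may not be separated by their probes.

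The other class II receptor chains included the interferon receptors, 4 of which were well measured. None of 6 passed (limma; an unadjusted p under 0.05 for 0 higher and 1 lower gene, against 6.98% and 6.5% of all genes). IFNGR2, the accessory chain of the interferon gamma receptor, read 14.27, 14.27 and 14.29 in siCon and 13.78, 13.75 and 13.93 in siERK3. These groups did not overlap, as was so for 9.7% of all genes in that direction. The log2 difference was -0.45 (SE 0.13, limma, adjusted p = 0.154). IFNAR2 and IFNAR1, the chains of the type I interferon receptor, had differences of 0.12 (SE 0.14) and -0.22 (SE 0.16), and IFNGR1, which binds interferon gamma, one of -0.13 (SE 0.17), with overlapping groups for all 3. IL22RA2, a soluble receptor that captures IL-22, and F3, which encodes tissue factor, lay below background on all 6 arrays. The median difference of the 6 genes was -0.12.

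**Figure D2:**
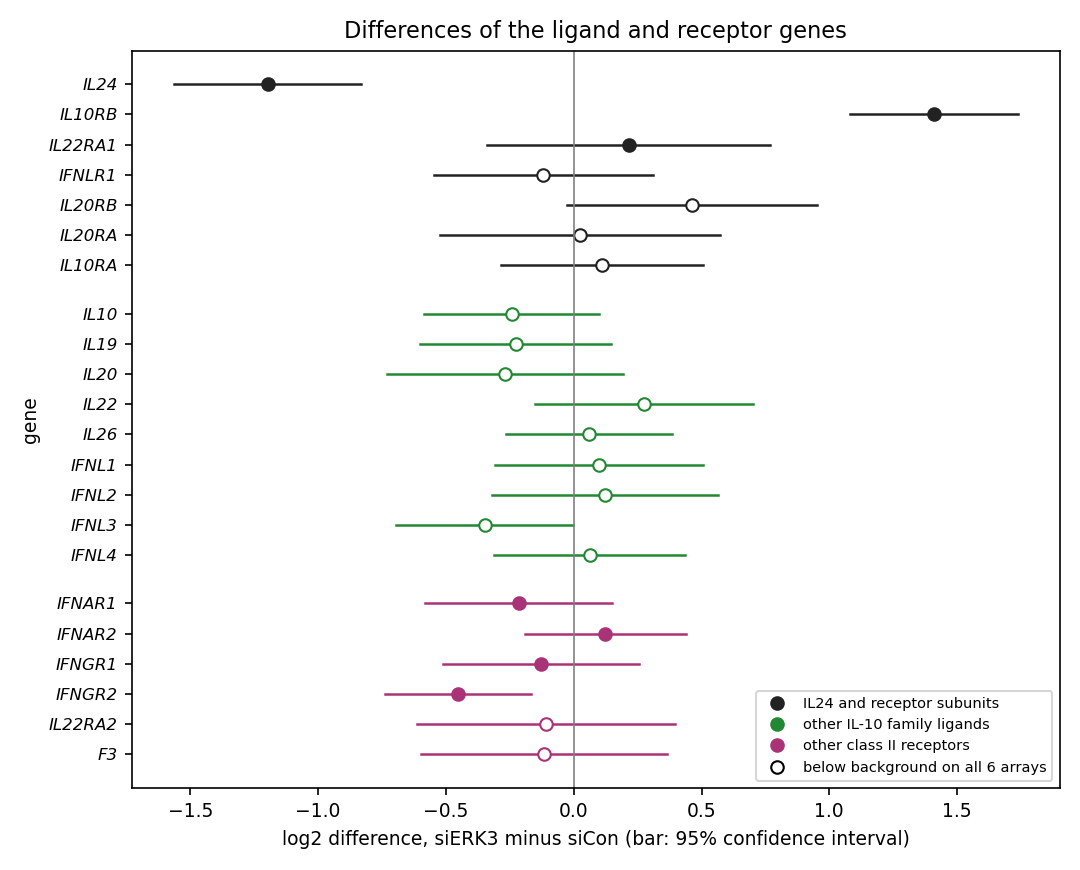
The log2 difference, siERK3 minus siCon, is plotted for IL24 and the receptor subunits, the 9 other ligands and the 6 other class II receptor chains, with bars for the 95% confidence interval and open circles for genes below background on all 6 arrays. IL24 at -1.20 and IL10RB at 1.41 lie at the ends, and the other 20 genes lie between -0.45 and 0.46.

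The chromosomal surroundings were compared, because several of these genes stand in clusters of relatives. IL24 ends a row of family members on chromosome 1, after IL10, IL19 and IL20, and these 3 neighbours had differences of -0.24, -0.23 and -0.27, all below background. IL10RB lies on chromosome 21 between IFNAR2 and IFNAR1, followed by IFNGR2 and TMEM50B. None of these 4 passed the test; IFNAR2 and IFNAR1 lay within 0.22 of no difference, IFNGR2 was at -0.45 and TMEM50B, a membrane protein gene, at 0.60. TMEM50B read 8.08, 7.99 and 8.27 in siCon and 8.70, 8.76 and 8.70 in siERK3 (limma, adjusted p = 0.0822). RefSeq also lists a readthrough gene, IFNAR2-IL10RB, so probes of IL10RB may also read transcripts that begin in IFNAR2.

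The remaining receptor genes had no called neighbour either. IL22RA1 and IFNLR1 are next to each other on chromosome 1, with STPG1 nearby at -0.48 (adjusted p = 0.203), and IL20RA stands beside IL22RA2 and IFNGR1 on chromosome 6, where MAP3K5, a stress-activated kinase, had the smallest p with a difference of -0.28 (adjusted p = 0.432). Beside IL10RA on chromosome 11 it was SCN4B, a sodium channel subunit below background, at -0.59 (adjusted p = 0.185), and beside IL20RB on chromosome 3 it was NCK1, an adaptor of receptor signalling, at 0.15 (adjusted p = 0.702). Of the 36 measured neighbours within 3 places, 0 passed in limma and 4 had an unadjusted p under 0.05, against 13.5% of all genes. Groups did not overlap for 1 that was higher and 6 that were lower, against 10.1% and 9.7% of all genes, and the median difference was -0.10.

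**Figure D3:**
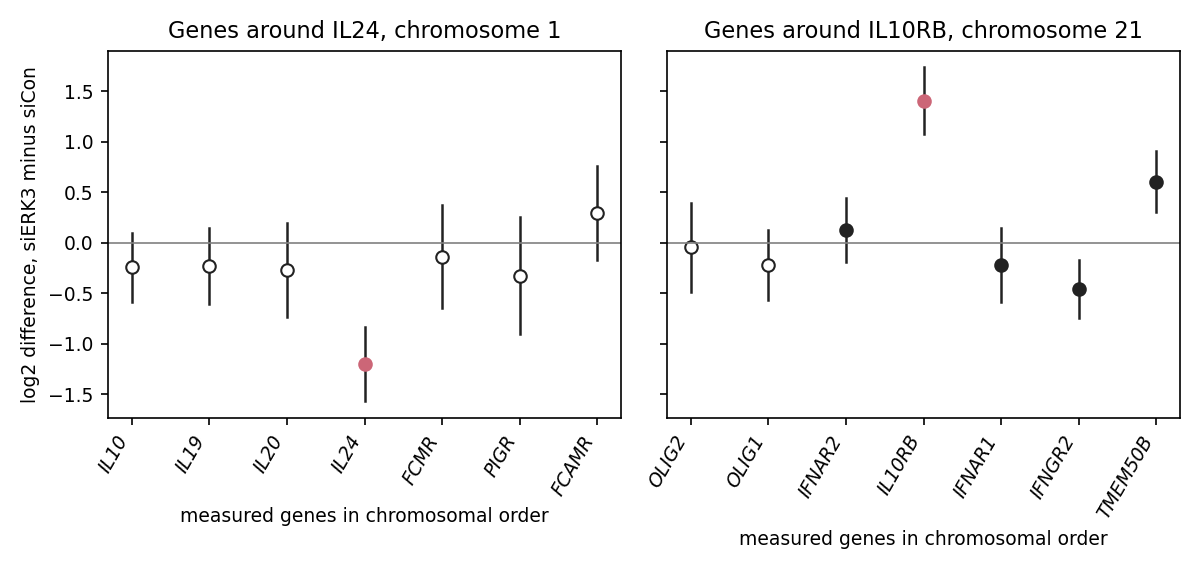
The log2 difference, siERK3 minus siCon, with its 95% confidence interval is plotted for the 3 measured protein-coding genes on each side of IL24 and of IL10RB, in chromosomal order, with IL24 and IL10RB in red and open circles for genes below background on all 6 arrays. The neighbours of IL24 run from -0.32 to 0.30 around its -1.20, and those of IL10RB from -0.45 to 0.60 around its 1.41.

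The kinases and transcription factors that these receptors activate came next, JAK1 and TYK2 being the kinases bound to the chains. Of 10 measured JAK and STAT genes limma called 0, while 2 that were higher and 1 that was lower had an unadjusted p under 0.05, against 6.98% and 6.5% of all genes. STAT3, the main effector of the family, read 10.30, 9.84 and 10.37 in siCon and 10.73, 10.86 and 10.87 in siERK3. All siERK3 values were higher, by 0.65 on average (SE 0.17, adjusted p = 0.128). TYK2, the kinase of IL10RB, had means of 9.66 ± 0.06 and 10.14 ± 0.08 (SD, n = 3 each) with a difference of 0.49 (SE 0.13, adjusted p = 0.129), and its groups did not overlap. JAK1, the kinase of the ligand-binding chains, had one of 0.14 (SE 0.15). Of the 10 genes, 2 that were higher and 1 that was lower had groups without overlap, against 10.1% and 9.7% of all genes.

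Inhibitors of JAK-STAT signalling gave no call. In limma 0 of 17 passed, an unadjusted p under 0.05 was reached by 3 higher and 0 lower genes, against 6.98% and 6.5% of all genes, and the median difference was 0.02. SOCS4 and SOCS5, members of the suppressor of cytokine signalling family, had differences of 0.63 (SE 0.13, adjusted p = 0.0715) and 0.61 (SE 0.13, adjusted p = 0.0725). SOCS3, the classical feedback inhibitor induced by STAT3, lay below background on all 6 arrays, at means of 5.14 and 5.33. Groups did not overlap for 6 of 17, all higher in siERK3, against 10.1% of all genes in that direction. Besides SOCS4 and SOCS5 these were PIAS1 (0.23), PIAS2 (0.28), PIAS3 (0.49) and PIAS4 (0.37), named after their values were seen, which encode the 4 protein inhibitors of activated STAT.

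Of 23 measured genes known as STAT3 targets, 1 rose, 1 fell and 21 did not pass, against 0.447% higher and 0.509% lower of all genes. In limma 4 higher and 4 lower genes had an unadjusted p under 0.05, against 6.98% and 6.5% of all genes. Groups did not overlap for 4 that were higher and 5 that were lower, against 10.1% and 9.7% of all genes. The median difference was 0.05. IL6ST, which encodes gp130, the shared signalling chain of the IL-6 cytokines, read 11.92, 12.01 and 11.89 in siCon and 13.25, 13.21 and 13.43 in siERK3. It rose 2.56-fold (limma, adjusted p = 0.00456), with no overlap between groups. CCND1, which encodes cyclin D1, fell 1.67-fold from 13.97 ± 0.15 to 13.24 ± 0.02 (SD, n = 3 each; limma, adjusted p = 0.0471). Leaving out any 1 of the 6 arrays kept the call of IL6ST and ended that of CCND1 (adjusted p up to 0.166).

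Genes that IL-20 subfamily cytokines are known to induce in epithelia lay mostly below background. Of 17 measured, 11 lay below background on all 6 arrays, S100A7, S100A8 and DEFB4A among them, against 8838 of all 17687 genes. CCL20, a chemokine, fell and the other 16 did not pass, against 0.509% of all genes called lower. CCL20 read 8.27, 8.51 and 8.73 in siCon and 6.78, 7.31 and 6.90 in siERK3. All 3 siERK3 values lay below background, so it was at least 2.19-fold lower (limma, adjusted p = 0.0135). Its call was lost without siCon 3, siERK3 1 or siERK3 3 (adjusted p up to 0.0693). An unadjusted p under 0.05 was reached by 1 higher and 4 lower genes, against 6.98% and 6.5% of all genes, and the median difference was -0.06. Groups did not overlap for 2 that were higher and 4 that were lower, against 10.1% and 9.7% of all genes.

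Among 22 measured stress and death genes tied to forced expression of IL24, 1 fell and 21 did not pass, against 0.509% of all genes called lower. The median difference was -0.27 against -0.0014 over all genes, and 1 higher and 9 lower genes had an unadjusted p under 0.05, against 6.98% and 6.5% of all genes. TNFRSF10B, which encodes the TRAIL receptor DR5, fell 1.81-fold from 11.05 ± 0.13 to 10.20 ± 0.07 (SD, n = 3 each; limma, adjusted p = 0.0270). Leaving out any 1 array ended its call (adjusted p up to 0.12). Groups did not overlap for 10 that were lower and 3 that were higher, against 9.7% and 10.1% of all genes. EIF2AK2, the double-stranded RNA kinase PKR that mediates killing by forced IL24, had a difference of 0.12 (SE 0.13), and HSPA5, the endoplasmic reticulum chaperone that binds the IL-24 protein, one of 0.22 (SE 0.14).

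Families of factors and mRNA decay proteins, of which some members are known to act on IL24, were examined as well. Whether each listed gene acts on IL24 was not tested. AP-1 and C/EBP factors include some that bind the IL24 promoter in melanoma cells. Of 12 measured, 0 passed in limma, and the median difference was -0.18. In limma 1 higher and 2 lower genes had an unadjusted p under 0.05, against 6.98% and 6.5% of all genes. FOSL1, an AP-1 subunit, had a difference of -0.71 (SE 0.14, adjusted p = 0.0647) and FOSL2, its relative, one of -0.44 (SE 0.14, adjusted p = 0.231). The groups overlapped for neither. Of the 12 genes, 3 that were lower and 1 that was higher had groups without overlap, against 9.7% and 10.1% of all genes. Among 11 measured genes of p38 kinases and decay through AU-rich elements, ZFP36, which encodes tristetraprolin, a protein that speeds the decay of cytokine mRNAs, fell and the other 10 did not pass. ZFP36 read 9.35, 9.11 and 9.08 in siCon and 8.15, 7.87 and 8.38 in siERK3. That was a 2.06-fold lower signal (limma, adjusted p = 0.0300), and leaving out any 1 array ended the call (up to 0.115). Over these 11 genes, 2 higher and 1 lower had an unadjusted p under 0.05 in limma, against 6.98% and 6.5% of all genes. Groups did not overlap for 4 that were higher and 1 that was lower, against 10.1% and 9.7% of all genes. Their median difference was 0.10, and 0.509% of all genes were called lower.

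Interferon-stimulated genes, the output of lambda and type I interferon receptors, had 0 of 26 past the test in limma. An unadjusted p under 0.05 was reached by 3 higher and 4 lower genes, against 6.98% and 6.5% of all genes, and the median difference was 0.13. IFI44 had a difference of -0.72 (SE 0.15, adjusted p = 0.0738), and BST2, the virus-tethering protein, one of 0.68 (SE 0.13, adjusted p = 0.0644) at levels of 3.10 and 3.78, below background.

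**Figure D4:**
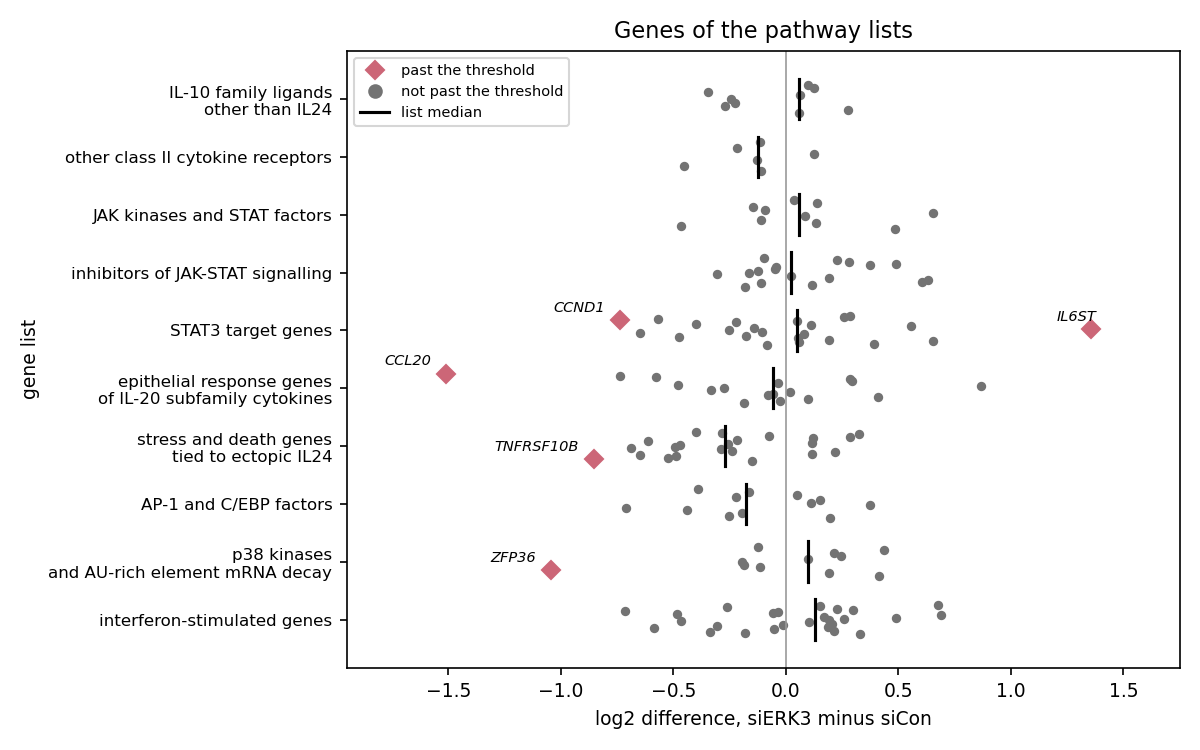
Each point is the log2 difference, siERK3 minus siCon, of 1 measured gene in 10 lists around IL24 and its receptors, with diamonds for genes past the threshold and black lines for list medians. The diamonds are IL6ST at 1.36, CCND1 at -0.74, TNFRSF10B at -0.85, ZFP36 at -1.05 and CCL20, which is drawn at its measured difference although its siERK3 values lay below background, where only the bound of at least 2.19-fold lower holds.

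Over all 10 lists, with IL24 and the receptor subunits left out and each gene counted once, 1 of 144 genes rose and 4 fell, against 0.447% and 0.509% of all genes. The median difference was -0.05.

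Finally, the genes whose values over the 6 arrays ran most like those of IL24 and of IL10RB were listed among 8383 genes above background on at least 3 arrays. These correlations describe 6 points that share the group difference and carry no test, and the choice by likeness fixes the direction of the differences given with them. Nearest to IL24 were IL1RAPL1, a synaptic relative of the IL-1 receptor accessory chain (Pearson's r 0.998), SRGAP2 (0.996), CACUL1 (0.992), MGAT4B (0.992) and PSMB7, a proteasome subunit (0.991). Their differences ranged from -0.17 for SRGAP2, which has near-identical copies that its probes may also read, to -0.93 for CACUL1. Nearest to IL10RB were EHD3 (0.999), RELL1 (0.997), SNX27 (0.997), FDCSP (0.996) and CCNE2, a cyclin of S phase entry (0.995). EHD3 and SNX27 act in the recycling of membrane proteins from endosomes. Their differences were 0.86 and 0.43, and those of RELL1, FDCSP and CCNE2 were 0.70, 0.79 and 0.76. CCNE2 lay above background on 1 of 3 siCon arrays.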

How the data were processed

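Total RNA was profiled on 6 Affymetrix Clariom S Pico human arrays with the WT PLUS kit, per the labels and the design text. The authors' deposited table holds log2 values for 24351 probe sets on each array. That scale was inferred from their range, 1.84 to 19.4. The sources used here do not name the software, background correction or normalization. The zero point and any stretch of the scale are unknown, and folds would depend on a stretch. The platform annotation gave 1 symbol for 17709 probe sets, and the brightest was kept for 20 genes with several, which left 17687 genes. Differences were fitted by lmFit and eBayes of limma 3.58.1 (R 4.3.3) without covariates and adjusted by Benjamini-Hochberg over all 17687 genes at 0.05. The code was tested on simulated data. The members and lists were chosen with earlier results of these data known. Named in the text are all 7 members, MAPK6, all ligands and class II receptors, list genes past the threshold or else the 2 with the smallest p, the neighbour with the smallest p, and the 5 genes most like IL24 and IL10RB; others were named after their values were seen. Promoter windows are those of RefSeq on GRCh38.p14; all 7 members matched. The number of arrays limits the precision. A planned comparison of protein sequences was not run. Alternatives were other normalizations, a filter, other variance models, averaged probe sets, a replicate block, each array left out, and other background percentiles.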

Additional observations from a re-analysis of the deposited data

How the results depend on the processing

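IL24 and IL10RB kept their directions under all 8 other fits (differences of -1.24 to -1.18 and 1.39 to 1.41) and in all 6 fits without 1 array (-1.35 to -1.10 and 1.31 to 1.46). Signs of IL20RA (-0.26 to 0.24), IL22RA1 (-0.015 to 0.36) and IFNLR1 (-0.24 to 0.06), none of them called, changed with the array left out. The count of the 7 members past the threshold, a description since this contrast chose them, was 2, and 1 to 2 without 1 array and 1 with the replicate number as a block. Where it was 1, the gene that dropped out was IL24. Of the pathway genes 5 were called; this count was 11 when genes under the 30th percentile of mean signal were dropped, 22 with a mean-variance trend and robust eBayes, 2 with the replicate block, and 1 to 2 without 1 array. Over all genes 169 were called, against 365, 722 and 33 under those 3 fits and 23 to 60 without 1 array. FOSL1, SOCS4, SOCS5, IFI44 and TMEM50B, not called in the text, passed under the first 2 of these fits, and STAT3, TYK2, IFNGR2, BST2, LYZ, CD68, SNX27, IL1RAPL1 and PSMB7 under the trend. The causes were not tested. Same-numbered arrays' deviations from their group means correlated at 0.05, -0.12 and -0.04 across genes, and those of differently numbered arrays at -0.15 to 0.17. No pairing by replicate number was seen, but 3 arrays per group cannot settle whether same-numbered arrays were handled together. Over the 7 members and 6 arrays, 17 values lay above background, 24 at the 90th percentile of the negative controls and 6, all of IL24, at the 99th. The IL10RB fold rests on siCon levels near background.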
